A study of Mus musculus with 12 samples.

Results

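The comparison described here set 3 libraries of GSK805-treated T helper 17 (Th17) cells against 3 vehicle libraries, which are 6 of the 12 libraries of the study. Of the 29522 genes listed in each library, 12784 had a mean of at least 1 FPKM in the vehicle or the GSK805 group, and all of these were tested. FPKM is a level of fragments corrected for gene length and library size. Naive CD4+ T cells had been isolated with magnets from the spleens of wild-type C57BL/6J mice, grown in RPMI medium with a Th17-inducing supplement and stimulated through CD3 and CD28. The vehicle group received no compound, the GSK805 group received GSK805 at 0.5 uM, the ILA group received ILA at 200 uM, and the last group received both compounds at these doses. ILA is taken to be indole-3-lactic acid, which gut bacteria form from tryptophan. Each of the 4 groups had 3 libraries labelled as biological replicates. No age, no animal and no treatment time is named for them, so the p-values below measure the spread between these samples. The ILA and GSK805 plus ILA groups serve here to show the GSK805 effect a second time, in 6 libraries outside the vehicle and GSK805 groups. Those 6 libraries also enter the fit, so they help to set the p-values of the vehicle comparison.

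Th17 cells are helper T cells that secrete interleukin-17A and interleukin-17F and act at mucosal surfaces, against extracellular bacteria and fungi, and in autoimmune inflammation. Nuclear receptors of the ROR family bind short DNA elements built on the half-site AGGTCA and take part in transcription of the genes of this lineage. GSK805 is a small molecule that inhibits ROR-dependent transcription.

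Upstream sequences of 5 of the 16 Th17 cytokine and receptor genes called lower with GSK805 are shown first, because the half-site of ROR receptors is a feature of sequence. The windows are the 250 bases before the transcription start in RefSeq (GRCm38.p6). Printing is limited to genes with the letters AGGTCA on either strand, which stand in capitals (TGACCT where the match is on the opposite strand). For Il17f the 224 bases outside an annotated exon of another transcript are printed. All read 5′ to 3′ on the strand of the gene.
Il17a, chr1:20730655-20730904, plus strand: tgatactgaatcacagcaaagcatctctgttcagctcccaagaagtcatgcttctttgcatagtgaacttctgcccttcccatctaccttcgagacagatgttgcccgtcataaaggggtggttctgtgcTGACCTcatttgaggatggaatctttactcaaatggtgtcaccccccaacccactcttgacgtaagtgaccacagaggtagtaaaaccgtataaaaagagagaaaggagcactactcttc
Il17f, chr1:20784271-20784494, minus strand: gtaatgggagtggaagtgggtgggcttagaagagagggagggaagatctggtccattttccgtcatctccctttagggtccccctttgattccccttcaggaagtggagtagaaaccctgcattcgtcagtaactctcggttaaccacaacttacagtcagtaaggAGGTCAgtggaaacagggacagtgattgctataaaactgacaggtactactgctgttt
Il23r, chr6:67491856-67492105, minus strand: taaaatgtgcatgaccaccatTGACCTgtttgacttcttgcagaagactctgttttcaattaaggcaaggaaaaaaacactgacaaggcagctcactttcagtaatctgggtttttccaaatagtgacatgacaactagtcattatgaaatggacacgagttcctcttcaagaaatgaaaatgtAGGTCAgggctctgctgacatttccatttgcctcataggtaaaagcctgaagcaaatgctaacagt
Ccr6, chr17:8235793-8236042, plus strand: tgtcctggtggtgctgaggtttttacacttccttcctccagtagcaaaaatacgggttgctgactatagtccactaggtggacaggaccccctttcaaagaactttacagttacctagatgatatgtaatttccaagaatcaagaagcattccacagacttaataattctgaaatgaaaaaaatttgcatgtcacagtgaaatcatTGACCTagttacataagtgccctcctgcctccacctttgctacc
Ccl20, chr1:83116516-83116765, plus strand: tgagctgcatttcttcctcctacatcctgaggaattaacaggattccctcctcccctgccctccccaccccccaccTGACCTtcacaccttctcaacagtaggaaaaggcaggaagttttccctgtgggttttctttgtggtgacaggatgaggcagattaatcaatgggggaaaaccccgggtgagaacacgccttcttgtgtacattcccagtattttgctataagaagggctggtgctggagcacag
The half-site began 120 bases before the start in Il17a, 58 in Il17f, 44 in Ccr6 and 174 in Ccl20, and Il23r held it at 229 and at 66 bases. It was not in the window of a second start of Ccr6, nor in those of the other 11 genes, Il21, Il22, Lif, Csf2, Cxcl3, Il1r1, Gpr65, Ltb4r1, Cxcr6, Tmem176a and Tmem176b. The window of Il22 overlaps an annotated exon, so it is not purely upstream sequence. The letters were thus found for 5 of the 16 genes and in 5 of 21 windows (23.8%). Of the 10539 windows that matched a tested gene, 10.7% held them, as did 14.0% of all 32851 windows in the table. Genes called lower with GSK805 held them in 10.4% of windows and genes called higher in 10.1%. Of the 29 matched genes that were called and at least 2-fold lower, 7 held them, and these 29 include those of the Th17 genes that fell at least 2-fold. Counted by gene, the share was 31.2% of the 16 Th17 genes and 24.1% of the 29. It was 12.8% of all matched tested genes, 13% of those called lower and 12.2% of those called higher. The 21 Th17 windows had a GC content of 51.5%, against 60.0% for the tested genes, so the base composition was not the same. A match of letters describes the window and is not a measured binding site.

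Depth and marker levels frame what follows. Whole reads recovered from the FPKM gave 20.52 to 23.42 M reads per library in the 6 libraries. The mean correlation of each library with the others of its group was 0.985 to 0.986. Ribosomal protein genes took 14.0% to 14.8% of the FPKM in the vehicle libraries and 11.9% to 12.2% in the GSK805 libraries, without overlap (exact permutation test, two-sided, p = 0.1, the smallest that 3 against 3 allows). The 8 genes of CD4 T cell identity were all expressed, with a summed level of 495 to 527 FPKM in vehicle and 541 to 577 FPKM in GSK805, so the label of the cells held. Markers of other cells were low: the summed level with vehicle and with GSK805 was 5.76 to 6.55 and 5.31 to 7.59 FPKM for B cells, 25.2 to 31.8 and 20.5 to 25.1 FPKM for CD8 T and NK cells, and 8.22 to 10.03 and 8.09 to 9.31 FPKM for myeloid cells. For γδ T cells it was 1.70 to 2.81 and 1.29 to 1.63 FPKM, and for stromal and endothelial cells 4.14 to 4.75 and 3.46 to 3.61 FPKM. Red cell and platelet markers summed to under 1 FPKM in each library, and 3 of 7 were at 0 in all 6. Of the 10 markers of other cells that could be tested, Klrd1 and Pecam1 were called, both lower.

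GSK805 changed a large share of the transcriptome, mostly by small amounts, and the largest falls of protein-coding genes were in the Th17 programme. In limma's moderated test on log2(FPKM + 1), with Benjamini-Hochberg adjustment over all 12784 genes, 3097 genes (24.2%) passed an adjusted p of 0.05. Of these, 2136 were higher (16.7% of the genes tested) and 961 lower (7.52%). Most differences were small: 1672 of the calls were under 1.25-fold and 1355 lay between 1.25-fold and 2-fold. At 2-fold or more, 54 genes were lower (0.422%) and 16 were higher (0.125%). Groups without overlap, with all 3 libraries of one group above all 3 of the other, were found for 5098 genes (39.9%). The test took its estimate of spread from all 12 libraries of the study. With only the 2 compared groups in the fit, 2247 genes (17.6%) passed instead of 3097. All folds here are ratios of FPKM + 1, which understate the change of genes with low values. The split into higher and lower calls depended on the scaling: calls were higher in 69.0% of cases as deposited, but in 56.2% after quantile normalization, 47.2% after removal of trends with GC content and gene length, and 38.9% after centring each library on its median. The plot of fold against level shows that the falls reach farther from 0 than the rises among abundant genes.

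**Figure D1:**
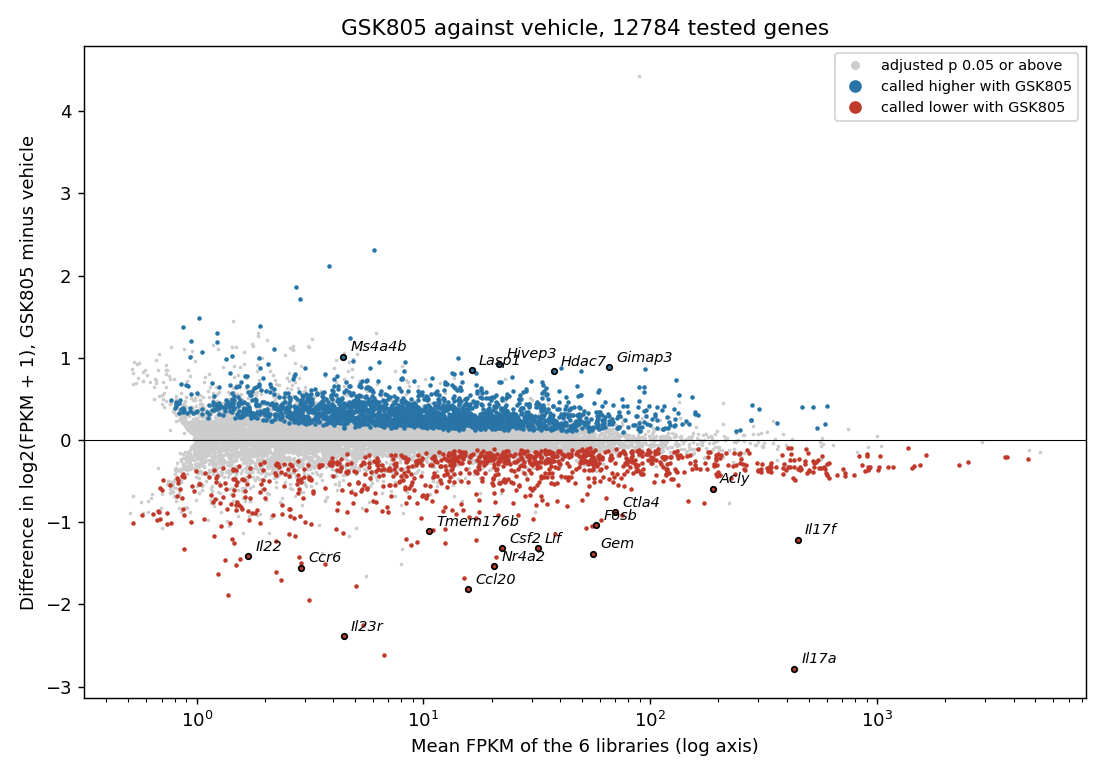
Difference in log2(FPKM + 1) between GSK805 and vehicle (vertical axis) against the mean FPKM of the 6 libraries (horizontal, log axis), 1 point per tested gene, with genes that passed an adjusted p of 0.05 in blue (higher) or red (lower). Il17a, at -2.78, lies lowest of all, and Il23r, Ccl20, Ccr6 and Nr4a2 lie below -1.5, while the labelled rises stay near 1.

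Transcripts of the Th17 cytokines fell together. Of 10 tested cytokines and chemokines of the Th17 programme, 8 were called lower, 0 higher and 2 did not pass, beside a background of 7.52% for lower calls, and the median difference was -1.26 (log2) against 0.06 over all tested genes. Il17a (chr1:20730905-20734496, plus strand), which encodes interleukin-17A, stood at 634, 803 and 832 FPKM in the 3 vehicle libraries and at 97.7, 122 and 107 FPKM in the 3 GSK805 libraries. Every GSK805 library was thus far below every vehicle library. This was a 6.87-fold fall (log2 difference -2.78, SE 0.12, adjusted p = 9.11e-07), with means of 756 ± 107 and 109 ± 12.2 FPKM (SD, n = 3). In bulk RNA fewer cells that express a gene and less of its RNA per cell cannot be told apart. Il17f (chr1:20777146-20790617, minus strand), the neighbour and close relative of Il17a, was listed at 564, 652 and 656 FPKM with vehicle and at 248, 276 and 282 FPKM with GSK805. Both genes had similar levels in vehicle cells, and Il17f kept a larger part of its level: it fell 2.32-fold (SE 0.07 on the log2 scale, adjusted p = 2.75e-06).

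The remaining cytokines fell from lower starting levels. Ccl20 (chr1:83116766-83119167, plus strand), the chemokine ligand of CCR6, was at 21.7, 25.1 and 28.3 FPKM with vehicle and at 6.01, 6.42 and 6.63 FPKM with GSK805, a 3.53-fold fall (SE 0.19, adjusted p = 0.000113). Il21 (chr3:37222759-37232636, minus strand), which acts on T and B cells and feeds back on Th17 cells, was at 65.98, 72.2 and 75.3 FPKM with vehicle and at 31.8, 34.2 and 33.8 FPKM with GSK805, 2.1-fold lower (SE 0.08, adjusted p = 1.02e-05). In both genes the values of each group lay close together and the groups did not overlap. Il22 (chr10:118204942-118210047, plus strand), which signals to epithelium, was scarce: the vehicle libraries gave 1.42, 2.9 and 4.59 FPKM and the GSK805 libraries 0.231, 0.539 and 0.472 FPKM. The vehicle libraries of Il22 were widely spread, yet the lowest of them was above the highest GSK805 library, and the fall was 2.66-fold (SE 0.28, adjusted p = 0.00433). Lif, a cytokine of the interleukin-6 family, went from 46.02 ± 6.09 to 17.8 ± 0.806 FPKM (2.49-fold lower, adjusted p = 1.57e-05). Csf2, which encodes GM-CSF, was at 22.1, 35.6 and 39.1 FPKM with vehicle and at 9.71, 11.3 and 15.6 FPKM with GSK805 (2.49-fold lower, adjusted p = 0.00635), with its lowest vehicle library at a distance from the other two. Cxcl3, a chemokine for neutrophils, was called lower from 1.06 ± 0.168 to 0.0908 ± 0.0223 FPKM. Tnf (log2 difference 0.02, adjusted p = 0.827) and Il9 (0.42, adjusted p = 0.398) did not pass. The 8 calls of this list were made without each of the 6 libraries in turn as well, and the plot of the single libraries shows the separation.

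**Figure D2:**
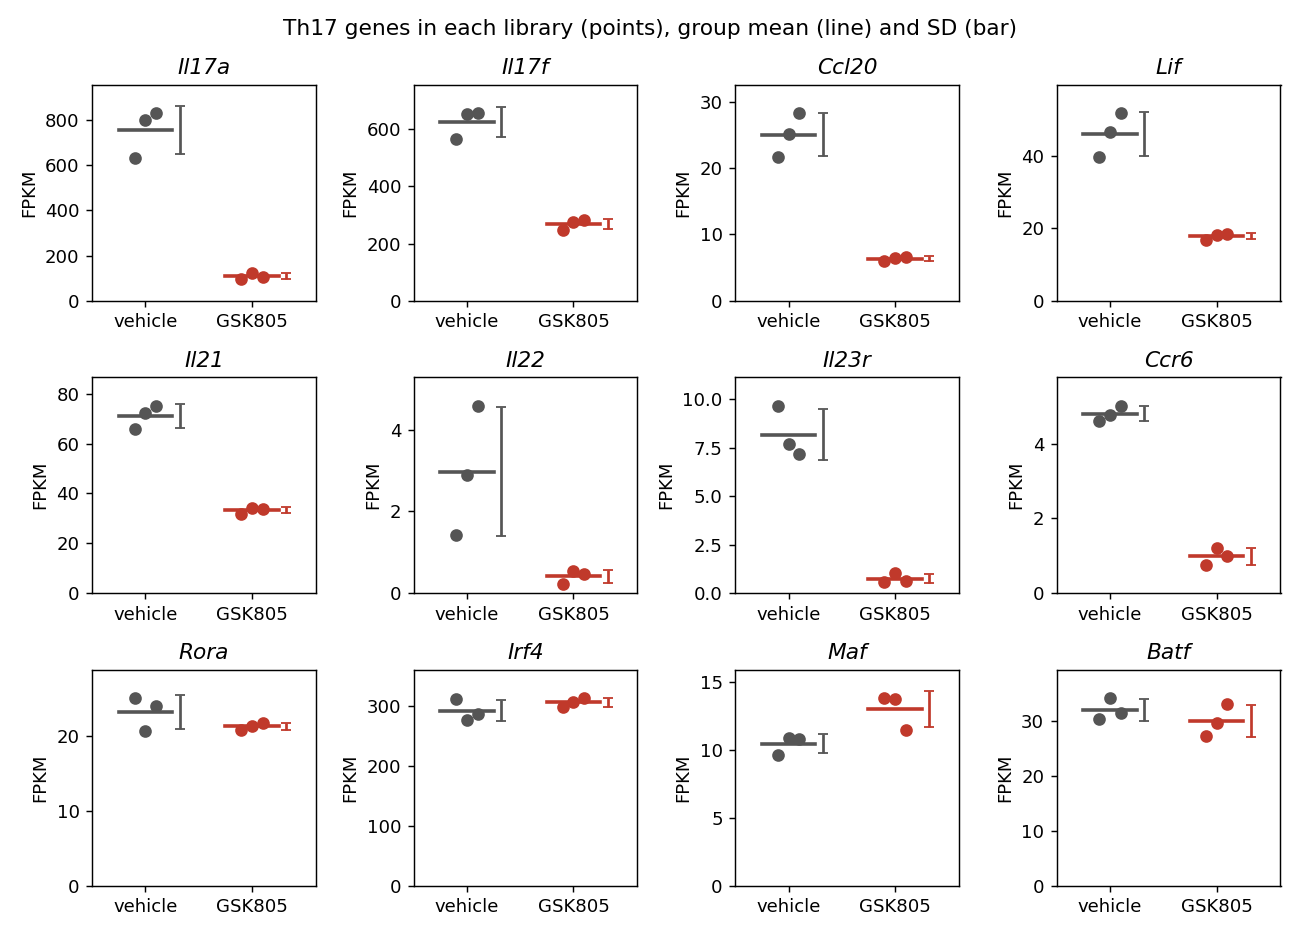
FPKM of 12 Th17 genes in each vehicle (grey) and GSK805 (red) library, with the group mean as a line and the SD (n = 3) as a bar, each panel on its own axis from 0. The 8 cytokine and receptor genes of the upper rows separate without overlap, while the groups overlap for Rora, Irf4 and Batf, and Maf is somewhat higher with GSK805.

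Receptors of the Th17 programme moved in both directions, with the large differences all downward. Of 14 tested, 8 were called lower and 4 higher, beside backgrounds of 7.52% and 16.7%, with a median of -0.56. Il23r (chr6:67422932-67491855, minus strand), the receptor subunit for interleukin-23, which sustains Th17 cells, was at 9.67, 7.68 and 7.15 FPKM with vehicle and at 0.584, 1.02 and 0.651 FPKM with GSK805. It fell 5.23-fold (SE 0.14, adjusted p = 2.75e-06), the second largest fall of a protein-coding gene after Il17a among the genes named by rule. This rank holds for ratios of FPKM + 1, which understate the fall of Il23r, with means of 8.17 and 0.751 FPKM, more than that of Il17a. Ccr6 (chr17:8236043-8257141, plus strand), the homing receptor for CCL20, was at 4.61, 4.77 and 5.02 FPKM with vehicle and at 0.755, 1.21 and 0.985 FPKM with GSK805, 2.94-fold lower (SE 0.12, adjusted p = 1.08e-05). The receptor and its ligand Ccl20 therefore both fell, each without overlap of the groups. Tmem176a was at 10.6, 13.3 and 12.3 FPKM with vehicle and at 5.23, 4.24 and 4.55 FPKM with GSK805, and its neighbour Tmem176b at 14.02, 15.4 and 15.2 and 6.74, 6.6 and 5.74 FPKM. These paired membrane-protein genes fell 2.3-fold and 2.16-fold, but they overlap on opposite strands, and with strand handling unstated their reads may not be separable.

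Among the other receptors, Ltb4r1 (leukotriene B4; log2 difference -1.01), Il1r1 (interleukin-1; -0.78), Gpr65 (an acid-sensing receptor; -0.68) and Cxcr6 (-0.43) were also called lower. The 4 receptors called higher were Il6ra (interleukin-6; 0.51, adjusted p = 0.000518), Tgfbr2 and Tgfbr1 (TGF-β; 0.51 and 0.26) and Il21r (interleukin-21; 0.39). The number of receptors called higher was 3 after median centring. Il6st (0.19, adjusted p = 0.0655) and Il18r1 (-0.01, adjusted p = 0.964) did not pass.

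Of 15 transcription factors of the Th17 programme, 7 were called lower and 2 higher, beside 7.52% and 16.7% over all genes, and 6 did not pass. Rora, which encodes RORα, a nuclear receptor, was at 23.3 ± 2.33 and 21.4 ± 0.457 FPKM (-0.11, adjusted p = 0.241). It passed as lower after median centring, after removal of the GC and length trends and without vehicle replicate 2. Batf (-0.09, adjusted p = 0.507), Irf4 (0.07, 0.347) and Stat3 (-0.04, 0.705), which open the Th17 loci in activated cells, did not pass, and Irf4 passed as higher after quantile normalization. Runx1 (0.04) and Ikzf3 (0.19) did not pass either.

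Among the factors called lower, Fosl2, an AP-1 factor, went from 39.98 ± 2.34 to 22.7 ± 1.46 FPKM (1.73-fold lower, adjusted p = 3.69e-05). Id2 (-0.54, adjusted p = 0.00254), Nfkbiz, which encodes IκBζ (-0.50), Satb1 (-0.38), Hif1a (-0.27) and Bhlhe40 (-0.19) were lower as well, as was Junb (-0.47, adjusted p = 0.00926), which did not pass after quantile normalization (0.104). Maf was at 9.66, 10.9 and 10.8 FPKM with vehicle and at 13.8, 13.8 and 11.5 FPKM with GSK805, and Ahr at 3.75, 3.07 and 3.61 and 4.78, 4.31 and 4.18 FPKM. Both were called higher (adjusted p = 0.0173 and 0.0462), but over the alternatives their adjusted p ran from 0.000539 to 0.113 and from 0.00793 to 0.156, and neither was called after median centring, after removal of GC and length trends or without GSK805 replicate 1 or 2.

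Genes of the other helper lineages gave no common rise. Of 12 tested Th1 genes, 4 were lower and 0 higher, Th2 genes gave 0 calls among 5, and of 9 follicular helper genes 3 were lower and 0 higher. Over all tested genes 16.7% were higher and 7.52% lower. With lists this short, the lack of higher calls says little. Ifng, the Th1 cytokine, was at 6.65, 6.66 and 9.02 FPKM with vehicle and at 4.68, 2.99 and 3.38 FPKM with GSK805, without overlap (1.81-fold lower, adjusted p = 0.00175). Stat4 (-0.52) and Il12rb1 (-0.39), of the interleukin-12 pathway, and Nkg7 (-0.65), of cytotoxic granules, were the other lower Th1 genes. Tbx21, the Th1 master regulator, was below the filter, with no vehicle or GSK805 library above 0.875 FPKM, and was not tested. Gata3, its Th2 counterpart, stood at 1.54 ± 0.0247 and 1.82 ± 0.162 FPKM and did not pass (adjusted p = 0.319). The lower follicular helper genes were Cd40lg (-0.53), the ligand that licenses B cells, Tox2 (-0.44) and Cd200 (-0.33).

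Regulatory T cell genes were divided, with 5 higher and 3 lower of 12, beside backgrounds of 16.7% and 7.52%. Foxp3, the lineage factor, was at 1.06, 1.59 and 1.05 FPKM with vehicle and at 1.89, 1.75 and 1.86 FPKM with GSK805, and its second vehicle library came close to the GSK805 values. It was called (log2 difference 0.35, adjusted p = 0.0281), but its adjusted p ran from 0.00637 to 0.0999 over the alternatives. The 5 rises were not stable: they fell to 1 without GSK805 replicate 2 or vehicle replicate 1, to 2 without GSK805 replicate 1, GSK805 replicate 3 or vehicle replicate 3, to 3 without vehicle replicate 2, and to 1 after median centring, after removal of GC and length trends or with only the 2 groups in the fit. The 3 falls became 1 with only the 2 groups and without GSK805 replicate 2 or vehicle replicate 2. Nt5e, which encodes CD73, an enzyme that makes adenosine, went from 26.95 ± 1.26 to 42.3 ± 2.12 FPKM (1.55-fold higher, adjusted p = 9.34e-06). Ctla4, an inhibitory receptor, went the other way, from 83.4, 91.2 and 99.1 FPKM to 54.9, 49.2 and 43.4 FPKM (1.84-fold lower, adjusted p = 7.53e-05). Nrp1 (-0.40, adjusted p between 2.92e-05 and 0.075 over the alternatives) and Itgae (-0.31) were lower, and Il10 at 1.998, 2.53 and 3.7 and 3.59, 3.41 and 3.42 FPKM did not pass (adjusted p = 0.197), though it passed as higher without vehicle replicate 3. Among 9 inhibitory receptors, Ctla4 and Cd200 were the only calls, both lower (22.2%, beside 7.52% of all genes called lower and 24.2% called in either direction).

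Chemokines fell beyond the Th17 list. Of 8 tested, 5 were lower, Ccl20 and Cxcl3 among them, and 0 higher, beside a background of 7.52% for lower calls, with a median of -0.60. Xcl1 was at 35.5, 48.6 and 50.5 FPKM with vehicle and at 26.7, 25.4 and 24.03 FPKM with GSK805 (1.72-fold lower, adjusted p = 0.00133). Ccl3 was at 61.1, 61.2 and 72.7 and 42.4, 37.9 and 42.1 FPKM (1.58-fold lower, adjusted p = 0.0093), and Ccl4, its neighbour, differed by -0.54 (adjusted p = 0.0058). In these genes too the GSK805 libraries were all below the vehicle libraries, while Ccl5 (-0.08), Ccl9 (-0.33) and Ccl22 (-0.02) did not pass. Trafficking receptors were mixed, with 3 lower and 3 higher of 11, beside 7.52% lower and 16.7% higher over all genes. Ccr6 and Cxcr6, already counted among the Th17 receptors, were among the lower ones. Gpr183, the oxysterol receptor that positions lymphocytes, went from 2.66 ± 0.332 to 1.03 ± 0.153 FPKM (1.8-fold lower, adjusted p = 0.000132). The receptors of lymph node entry and exit were higher: S1pr4 (0.60), S1pr1 (0.64) and Ccr7 (0.19, adjusted p = 0.0343). S1pr1 did not pass without GSK805 replicate 1 (0.0553), and the 3 rises became 1 without GSK805 replicate 1 or GSK805 replicate 2. Of 9 integrins, 4 were higher, led by Itga6 (0.42) and Itgb2 (0.38), and 2 lower, Itga3 (-0.85, from 19.6 ± 0.765 to 10.4 ± 0.368 FPKM) and Itgae. Itga6 did not pass with only the 2 groups in the fit or without vehicle replicate 3 (adjusted p up to 0.0707), and the lower integrins became 1 with only the 2 groups and without GSK805 replicate 2 or vehicle replicate 2.

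The largest falls by rule included genes outside these lists. Areg, which encodes the tissue-repair growth factor amphiregulin, was at 27.7, 30.1 and 34.4 FPKM with vehicle and at 9.42, 11.1 and 12.2 FPKM with GSK805 (2.67-fold lower, adjusted p = 1.16e-05). Gem, a small GTPase induced by activation, was at 74.8, 81.2 and 88.3 and 26.5, 32.3 and 33.1 FPKM (2.61-fold lower, adjusted p = 8.72e-06). Both had groups far apart relative to their spread. Acpp, an acid phosphatase, fell 2.42-fold from 12.8 ± 0.616 to 4.72 ± 0.689 FPKM, Sdcbp2, a syntenin relative, 2.39-fold from 18.03 ± 2.66 FPKM, and Rbpms2, an RNA-binding protein, 2.37-fold from 13.6 ± 0.836 FPKM.

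Of 22 early activation genes, 6 were lower and 4 higher, beside backgrounds of 7.52% and 16.7%, and all 3 genes of the NR4A family were among the lower ones. Nr4a2, an orphan nuclear receptor, was at 26.9, 30.97 and 35.1 FPKM with vehicle and at 9.02, 11.2 and 9.9 FPKM with GSK805 (2.89-fold lower, adjusted p = 5.09e-06). Its relatives Nr4a3, from 98.4 ± 6.61 to 51.8 ± 4.3 FPKM, and Nr4a1, from 219 ± 20.96 to 128 ± 7.34 FPKM, fell 1.89-fold and 1.7-fold. In all 3 the groups did not overlap. Fosb (66.4, 80.8 and 86.4 FPKM with vehicle, 37.5, 41.4 and 33.1 FPKM with GSK805) fell 2.05-fold, Fos differed by -0.74 and Egr3 by -0.39. Nfatc1 (0.43), Egr2 (0.26), Cd69 (0.25) and Il2ra (0.12, adjusted p = 0.0468) were called higher. Il2 (-0.23, adjusted p = 0.208), Fosl1 (-0.05), Myc (0.04), Egr1 (0.03), Jun (-0.18) and Cd44 (-0.11) did not pass.

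NF-κB genes gave 5 lower and 2 higher of 15, beside backgrounds of 7.52% and 16.7%. The 2 higher calls, Cyld (0.27) and Tnip1 (0.21), became 0 after median centring or removal of GC and length trends, and 1 with only the 2 groups and without GSK805 replicate 2, GSK805 replicate 3, vehicle replicate 1 or vehicle replicate 3. The lower ones were the subunit genes Nfkb1 (-0.36, from 185 ± 0.743 to 145 ± 8.62 FPKM) and Rel (-0.35) and the inhibitors Nfkbid (-0.37), Nfkbib (-0.30) and Tnfaip3 (-0.28). Rela (0.01), Nfkb2 (-0.02) and Nfkbia (0.01) did not pass. Cytokine signalling genes of the STAT and SOCS families gave 3 lower and 2 higher of 13 (38.5% called, against 24.2% of all genes). The lower calls became 1 without GSK805 replicate 1, vehicle replicate 2 or vehicle replicate 3, and the higher calls, Stat2 and Stat5a (0.18), 1 after median centring, after removal of GC and length trends or without GSK805 replicate 3. Stat4 was lower, Socs1 (-0.41) and Cish (-0.30) were called lower with adjusted p up to 0.0689 and 0.0774 over the alternatives, and Socs3 (-0.15, adjusted p = 0.51) did not pass.

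GIMAP genes rose as a family. These GTPases of immune-associated proteins support lymphocyte survival, and all 7 tested were called higher, beside a background of 16.7%, with a median of 0.53. The count stayed at 7 under each scaling tried and without each of the 6 libraries. As the list was chosen with earlier results of these data known, this count describes and does not test. Gimap3 was at 47.9, 46.1 and 43.9 FPKM with vehicle and at 87.9, 83.4 and 86.4 FPKM with GSK805 (1.85-fold higher, SE 0.04, adjusted p = 9.11e-07). Gimap4 was at 26.01, 27.5 and 30.9 and 56.7, 48.97 and 51.9 FPKM (1.84-fold higher, adjusted p = 1.77e-05), and Gimap5 at 9.68, 9.22 and 9.81 and 16.5, 15.9 and 15.4 FPKM (1.6-fold higher). In these genes every GSK805 library was above every vehicle library by far more than the spread within a group. Gimap9 (0.53), Gimap6 (0.45), Gimap8 (0.42) and Gimap1 (0.36) completed the family. The genes lie side by side on chromosome 6 and are related in sequence, so they are not independent items. The membrane-spanning Ms4a genes of T cells were higher in 3 of 3. Ms4a4b was at 2.99, 2.13 and 2.68 FPKM with vehicle and at 6.67, 6.23 and 5.8 FPKM with GSK805 (2.02-fold higher, adjusted p = 3.35e-05), followed by Ms4a6b (0.38) and Ms4a6c (0.33).

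Genes of naive and quiescent T cells were higher in 8 of 15 and lower in 2, beside backgrounds of 16.7% and 7.52%. Their median was 0.19, against 0.06 over all tested genes, and 6 were higher and 3 lower after median centring. Klf2, a quiescence factor that controls S1pr1, was at 2.81, 3.43 and 3.96 FPKM with vehicle and at 5.76, 7.33 and 4.85 FPKM with GSK805 (1.58-fold higher, adjusted p = 0.00301). Lef1 (0.48, from 4.6 ± 0.566 to 6.76 ± 0.441 FPKM) and Tcf7 (0.32), factors of naive and memory-like T cells, Pik3ip1 (0.44) and Foxp1 (0.37) were higher. Other quiescence genes did not follow: Txnip (-0.35) and Btg1 (-0.22) were called lower, and Il7r (-0.08), Foxo1 (0.08) and Bach2 (0.04) did not pass. The plot of the gene lists sets these groups beside the Th17 groups.

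**Figure D3:**
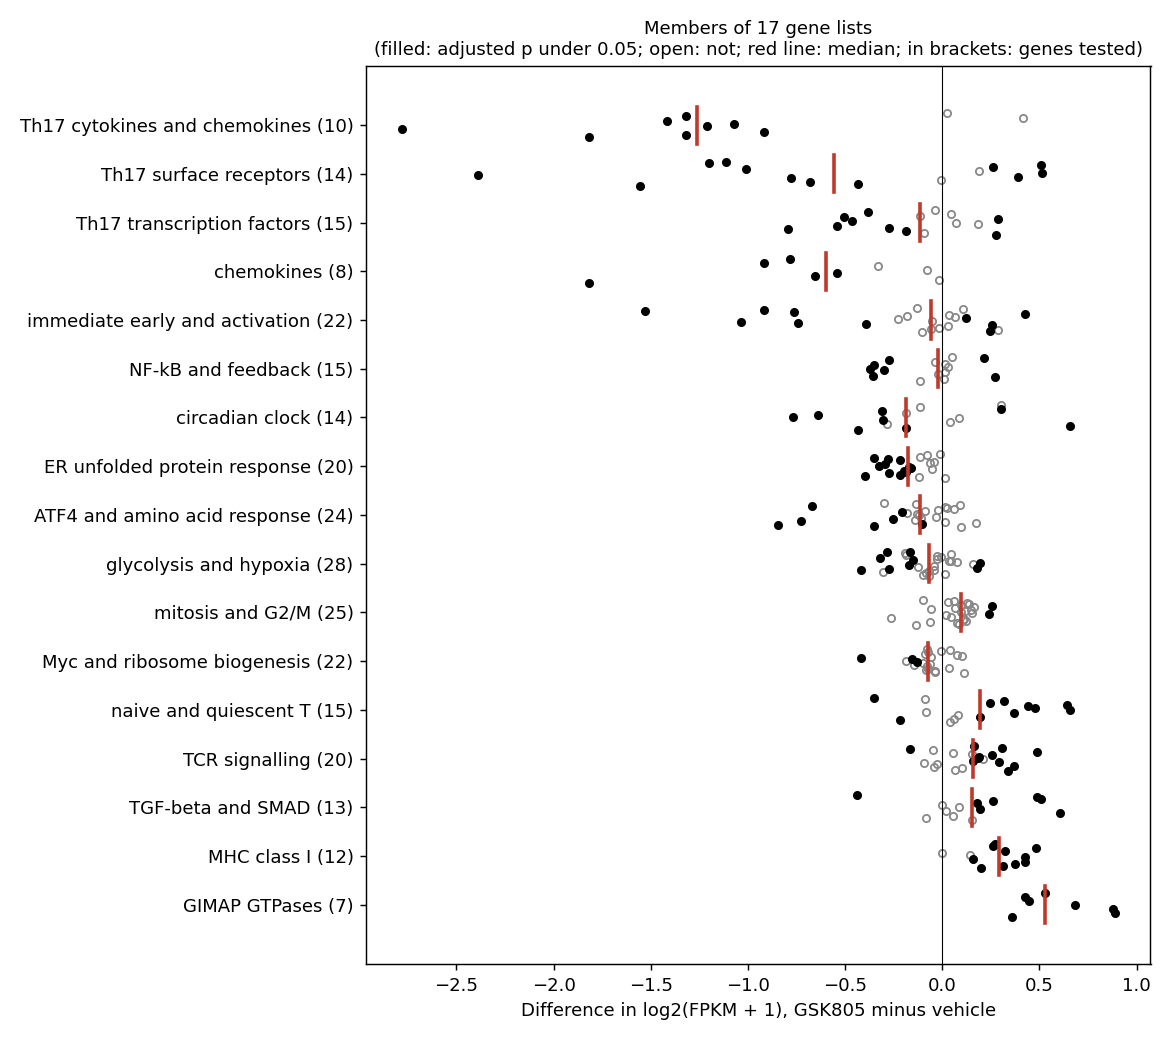
Difference in log2(FPKM + 1), GSK805 minus vehicle, for each tested member (point) of 17 gene lists, filled where the adjusted p was under 0.05, with the list median as a red line. The Th17 cytokines reach from -2.78 to 0.42 with a median of -1.26, and all 7 GIMAP genes lie to the right of 0.

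Genes of T cell receptor (TCR) signalling were higher in 10 of 20 and lower in 1, beside backgrounds of 16.7% and 7.52%, with a median of 0.16, and 6 higher and 2 lower after median centring. Plcg1, a phospholipase of the proximal pathway, went from 11.6 ± 0.276 to 16.7 ± 0.316 FPKM (1.4-fold higher, adjusted p = 3.69e-05). Cd3e (0.37), Cd2 (0.34), Ptprc (0.31) and Cd5 (0.29) were higher, while Cd4 (-0.09), Cd3d (-0.05), Cd3g (-0.03) and Cd247 (0.07) did not pass. The TGF-β pathway gave 6 higher and 1 lower of 13, but 3 higher and 2 lower after median centring. Smad3, which carries the signal to the nucleus, was at 14.7, 13.7 and 13.5 FPKM with vehicle and at 22.1, 21.8 and 21.4 FPKM with GSK805 (1.52-fold higher, adjusted p = 8.72e-06). The co-receptor Tgfbr3 (0.49) was higher, and the corepressor Tgif1 (-0.44) was the lower gene. Smad2 (0.06) and Smad4 (0.02) did not pass.

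The machinery of MHC class I presentation was higher in 10 of 12 genes and lower in 0, beside a background of 16.7% for higher calls, with a median of 0.29, and the count was 6 of 12 after median centring. H2-K1, a class I heavy chain, was at 234, 246 and 236 FPKM with vehicle and at 324, 324 and 317 FPKM with GSK805 (1.34-fold higher, adjusted p = 6.96e-06). H2-D1 was at 255, 265 and 265 and 356, 347 and 317 FPKM, and since these heavy chain genes are near copies, reads may be split between them. Tap1, the peptide transporter, went from 6.56 ± 0.373 to 9.57 ± 0.323 FPKM, and Nlrc5, the transactivator of the class I genes, from 6.07 ± 0.612 to 8.51 ± 0.982 FPKM. B2m (0.20) and Psmb9 (0.32) were higher, and Psmb8 (-0.00) and Psmb10 (0.14) did not pass. Of 7 interferon response genes 2 were higher, Stat2 (0.34, adjusted p up to 0.0589 over the alternatives) and Ifi35 (0.33), and 1 lower, Ifit3 (-0.49, adjusted p up to 0.128 over the alternatives).

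In the TNF superfamily 5 of 17 were higher and 3 lower (47.1% called, against 24.2% of all genes). The lower calls became 5 after median centring and 1 with only the 2 groups and without GSK805 replicate 1, GSK805 replicate 2, vehicle replicate 2 or vehicle replicate 3. Tnfsf4, which encodes OX40L, was at 34.8, 33.4 and 36.6 FPKM with vehicle and at 57.4, 64.7 and 68.7 FPKM with GSK805 (1.79-fold higher, adjusted p = 6.65e-05), and Cd27 went from 25.7 ± 1.29 to 41.6 ± 0.955 FPKM (1.59-fold higher). Cd40lg was lower, and Tnfsf11, which encodes RANKL, was called lower at -0.56 with an adjusted p up to 0.0916 over the alternatives. Among the other large rises by rule were regulators of transcription and signalling. Hivep3, a zinc-finger factor, was at 16.6, 12.9 and 14.4 FPKM with vehicle and at 28.1, 28.2 and 29.5 FPKM with GSK805 (1.9-fold higher, adjusted p = 9.34e-06). Hdac7, a class IIa histone deacetylase, was at 26.5, 26.6 and 26.9 and 48.3, 48.1 and 49.2 FPKM, with a very small spread within each group (1.79-fold higher, adjusted p = 9.11e-07). Lasp1, an actin-binding protein, rose 1.8-fold, Lrmp 1.83-fold, F2rl1, a protease-activated receptor, 1.79-fold, Dusp6, a phosphatase of the ERK kinases, 1.77-fold, and Tlr1 1.72-fold.

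Targets of the aryl hydrocarbon receptor (AhR) were higher in 4 of 5 and lower in 0, beside a background of 16.7% for higher calls, though neither group had received ILA. Cyp1a1, the classic target, was at 22.8, 26.7 and 25.6 FPKM with vehicle and at 43.3, 38.7 and 42.6 FPKM with GSK805 (1.64-fold higher, SE 0.08, adjusted p = 0.000173). Cyp1b1 was at 4.05, 4.57 and 4.87 and 8.04, 7.98 and 8.13 FPKM (1.65-fold higher, adjusted p = 5.30e-05). Both genes had groups without overlap, at levels under those of the ILA libraries, where Cyp1a1 stood at 111, 97.7 and 92.2 FPKM and Cyp1b1 at 73.9, 65.2 and 64.98 FPKM. Nqo1 was called at 1.07, 1.004 and 0.843 and 4.65, 1.9 and 1.9 FPKM, with GSK805 replicate 1 far above the other two. Ahrr, the AhR repressor, was called at 0.23 with an adjusted p up to 0.208 over the alternatives, and Tiparp (-0.19, adjusted p = 0.101) did not pass. Without vehicle replicate 3, or with only the 2 groups in the fit, the 4 calls became 2. They became 3 after quantile normalization or removal of GC and length trends. After median centring 3 were higher and 1 lower, and with voom on recovered reads 4 were higher and 1 lower. Among 14 genes of the NRF2 response to oxidants 6 were higher and 2 lower, but 3 were higher after median centring, with only the 2 groups and without GSK805 replicate 1 or vehicle replicate 3. Gsr (0.41) was higher and Srxn1 (-0.52) lower, while Hmox1 (-0.18) and Gclm (0.17) did not pass.

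Clock genes, of which several carry elements that ROR and REV-ERB receptors share, were lower in 6 of 14 and higher in 2, beside backgrounds of 7.52% and 16.7%. Nfil3 was at 29.8, 34.9 and 30.3 FPKM with vehicle and at 17.2, 17.9 and 19.3 FPKM with GSK805 (1.7-fold lower, adjusted p = 0.000215). Nr1d1, which encodes REV-ERBα, was at 8.08, 7.82 and 7.14 and 4.19, 4.94 and 4.58 FPKM (1.56-fold lower, adjusted p = 7.90e-05), and Arntl, which encodes BMAL1, at 10.03, 9.5 and 9.84 and 6.45, 7.14 and 7.41 FPKM (1.35-fold lower). These genes separated the groups without overlap. Cry1 (-0.31) and Per1 (-0.31) were lower, Bhlhe41 (0.66, from 0.486 ± 0.0627 to 1.35 ± 0.13 FPKM) and Per2 (0.30, adjusted p = 0.0478) were higher, and Clock (0.04), Cry2 (0.09) and Nr1d2 (-0.19) did not pass. The 2 higher calls became 1 after median centring, quantile normalization or removal of GC and length trends, with only the 2 groups, and without each of the 6 compared libraries except vehicle replicate 1. The labels give no time of harvest.

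Genes of the unfolded protein response, the chaperones of the endoplasmic reticulum (ER), were slightly lower: 12 of 20 were called lower and 0 higher, beside a background of 7.52% for lower calls, with a median of -0.18. Creld2 (-0.40, from 138 ± 6.96 to 104 ± 7.08 FPKM), Hyou1 (-0.32), Manf (-0.29) and Sec61b (-0.35) led, while Xbp1 (-0.01), Calr (0.02) and Pdia4 (-0.04) did not pass. The count of lower genes was 6 without GSK805 replicate 1 or vehicle replicate 3, 7 without vehicle replicate 2, and 8, beside 2 higher, after quantile normalization. Genes of amino acid supply under ATF4 were lower in 7 of 24 and higher in 0, but lower in 14 after median centring, in 13 after removal of GC and length trends and in 13 with voom on recovered reads, and 2 were higher after quantile normalization. Atf3 (-0.85, from 17.5 ± 0.536 to 9.27 ± 0.373 FPKM), Cth (-0.73), Slc7a3 (-0.67) and Asns (-0.35) were lower, and Psat1 (-0.12), Phgdh (-0.03), Chac1 (0.01) and Trib3 (-0.13) did not pass.

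Glycolysis and hypoxia genes were lower in 7 of 28 and higher in 2 (32.1% called, against 24.2% of all genes), with Gapdh (-0.42, from 87.9 ± 7.42 to 65.4 ± 3.64 FPKM) and Pgk1 (-0.32) lower, and Ldha (-0.04), Pkm (-0.00), Hk2 (-0.12) and Slc2a1 (0.04) not passing. The lower calls became 11 after median centring and 12 after removal of GC and length trends, and the 2 higher calls were 0 in both and 0 or 1 without each of the 6 libraries. In fatty acid synthesis 2 of 9 were lower and 1 higher (33.3% called), and the higher call was not made after median centring, quantile normalization or removal of GC and length trends. Acly, which makes acetyl-CoA from citrate, was at 228, 232 and 222 FPKM with vehicle and at 143, 150.5 and 157 FPKM with GSK805 (1.51-fold lower, adjusted p = 8.72e-06), and Scd2 differed by -0.38, while Fasn (0.01) and Acaca (0.18) did not pass. Sterol synthesis gave 3 higher and 2 lower of 21, all at under 1.5-fold (23.8% called, near the 24.2% of all genes). Insig1 (-0.29) and Cyp51 (-0.19) were lower, and Lss (0.34), Dhcr7 (0.39) and Nsdhl (0.32) higher, Dhcr7 and Nsdhl with adjusted p up to 0.148 and 0.105 over the alternatives. The 3 higher calls became 1 after median centring or removal of GC and length trends. The respiratory chain gave 1 higher, Sdha (0.23), and 2 lower, Cox4i1 (-0.25) and Uqcrfs1 (-0.16), of 27 (11.1% called, against 24.2% of all genes). The lower calls became 4 without vehicle replicate 1 or after median centring, and 1 without each of the other compared libraries except GSK805 replicate 2. Heat shock genes gave 2 higher and 2 lower of 13 (30.8% called), and 5 were lower after median centring or removal of GC and length trends.

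Few proliferation genes were called. Mitosis genes gave 2 calls among 25, Cenpa (0.24) and Nusap1 (0.25), both higher, beside a background of 24.2%, and 0 after median centring, quantile normalization or removal of GC and length trends. DNA replication genes gave 1 higher, Mcm6 (0.16), and 1 lower, Mcm7 (-0.25), of 26, and 4 were lower after median centring. Mki67 (0.16, adjusted p = 0.0649), Top2a (0.13), Pcna (-0.04) and Cdk1 (0.02) did not pass. Ribosome biogenesis genes under Myc were lower in 3 of 22 (5 after median centring, 1 after quantile normalization and 1 without GSK805 replicate 1, GSK805 replicate 2 or vehicle replicate 3), with Odc1 at -0.42, and Ncl (-0.08) and Fbl (-0.08) did not pass. Among 20 genes of cell death and the BCL2 family 4 were lower and 1 higher (25% called, near the 24.2% of all genes). After median centring or removal of GC and length trends 8 were lower. Bcl2l11, which encodes the death activator BIM, was at 11.3, 9.61 and 10.1 FPKM with vehicle and at 21.6, 17.3 and 18.1 FPKM with GSK805 (1.76-fold higher, adjusted p = 4.92e-05). Bcl2a1d, a survival gene with near copies (-0.73), and the p53 targets Cdkn1a (-0.70, from 79.6 ± 5.83 to 48.4 ± 2.5 FPKM), Phlda3 (-0.91) and Pmaip1 (-0.27) were lower, and Bcl2 (-0.11), Bcl2l1 (-0.11), Bax (0.01) and Trp53 (-0.08) did not pass. Of 5 purinergic genes 3 were higher, Nt5e, P2rx4 (0.35) and Adora2a (0.19), though Adora2a did not pass after median centring (0.0536). Of 7 granzyme and granule genes Gzmc (-0.96) was called lower, with an adjusted p up to 0.147 over the alternatives.

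The same compound at the same dose was also compared within ILA-treated cells, in libraries separate from those above. There 2402 genes (18.8%) were called, 1332 higher (10.4%) and 1070 lower (8.37%). Of the genes called in either setting, 913 were called in both: 408 were higher in both, 343 lower in both and 162 opposite. The 343 shared falls are 35.7% of the falls without ILA and 32.1% of those with it, and the 408 shared rises are 19.1% and 30.6% of the rises. Across all 12784 genes, which are not independent of each other, the differences correlated at r = 0.26, and at 0.51 among the genes called without ILA. A test of the difference between the effects called 1847 genes (14.4%), 703 higher with ILA (5.5%) and 1144 lower (8.95%), and the split reversed to 1306 higher and 738 lower after median centring.

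Most of the Th17 genes fell again in the presence of ILA. Il17a was at 153, 173 and 153 FPKM with ILA alone and at 36.4, 38.5 and 45.5 FPKM with both compounds, a 3.91-fold fall (adjusted p = 1.35e-05). The starting level was lower than in vehicle cells, and the fall was smaller on the log2 scale by 0.81 (adjusted p = 0.0113 for the difference). Il17f was at 271, 294 and 272 and 131, 142 and 148 FPKM (1.98-fold lower, adjusted p = 1.64e-05), and its effect did not differ detectably between the settings (adjusted p = 0.156). Il22 was at 7.71, 7.38 and 4.44 FPKM with ILA and at 0.484, 0.522 and 0.997 FPKM with both (4.45-fold lower), and Ccl20 at 17.2, 16.7 and 15.8 and 2.83, 4.92 and 6.26 FPKM (3.2-fold lower). All of these separated the ILA libraries from those with both compounds without overlap. Il23r was at 1.6, 1.69 and 2.25 and 0.345, 0.179 and 0.359 FPKM (2.19-fold lower), Ccr6 at 1.62, 2.22 and 1.81 and 0.116, 0.134 and 0.294 FPKM (2.44-fold lower), and for Il23r the difference between the settings was called (1.25, adjusted p = 0.00276). Both genes started lower with ILA than with vehicle (means of 8.17 and 4.80 FPKM). Ratios of FPKM + 1 understate a fall more at such low levels, so their folds in the 2 settings are not directly comparable. Part of the Il23r difference may come from this. In all, 7 of 10 Th17 cytokines and chemokines and 8 of 14 receptors were lower in ILA-treated cells, beside 8.37% of all genes. The sets were not the same as without ILA. Csf2 (-0.37, adjusted p = 0.386) and Gpr65 (0.02, adjusted p = 0.917) did not pass with ILA. For Gpr65 the difference between the settings was called (0.70, adjusted p = 0.00583). Il18r1, not called without ILA, was lower with it (-0.87). Tmem176a and Tmem176b fell 2.33-fold and 2.43-fold there.

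A transcription factor of the lineage was among the genes in which GSK805 differed by setting. Maf, higher with GSK805 alone, was at 36.5, 37.8 and 34.1 FPKM with ILA and at 25.1, 27.8 and 25.4 FPKM with both, so that it fell there (difference -0.74, adjusted p = 0.00192). It started from a higher level in the ILA libraries than in the vehicle libraries.

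For several gene groups the GSK805 effect differed in ILA-treated cells. Over all tested genes there, 10.4% were called higher, 8.37% lower and 14.4% for the difference between the settings. GIMAP genes had a median of 0.01 there, with 3 higher and 1 lower, and the difference between the settings was called lower for all 7. Gimap4 was at 240.4, 240.1 and 213 FPKM with ILA and at 225, 237 and 236 FPKM with both (difference -0.87, adjusted p = 0.000822). Its level with ILA alone was already far above the 2 groups without ILA. TCR signalling genes gave 2 higher, near the share over all genes, and 5 lower of 20, with 10 called for the difference. MHC class I genes gave 4 higher and 0 lower of 12, with 6 called for the difference. In the ER unfolded protein response 17 of 20 genes were higher in ILA-treated cells and 1 was lower, with a median of 0.25, and the difference was called for 18. Ribosome biogenesis genes were higher in 19 of 22 (difference called for 17), and mitosis genes lower in 22 of 25 with a median of -0.55 (difference called for 18). Mki67, the marker of cycling cells, differed by 0.16 without ILA and by -0.76 with it (difference adjusted p = 0.000388). Chemokine genes outside the Th17 list also turned: Xcl1 was at 5.84, 5.79 and 5.79 FPKM with ILA and at 8.52, 9.11 and 11.4 FPKM with both (difference 1.42, adjusted p = 0.00114), and Ccl3 rose by 0.52 there. Of the 54 genes that were at least 2-fold lower with GSK805 alone, 29 were also called lower in ILA-treated cells, beside 8.37% of all genes. Of the 16 at least 2-fold higher, 2 were called higher, near the 10.4% of all genes.

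**Figure D4:**
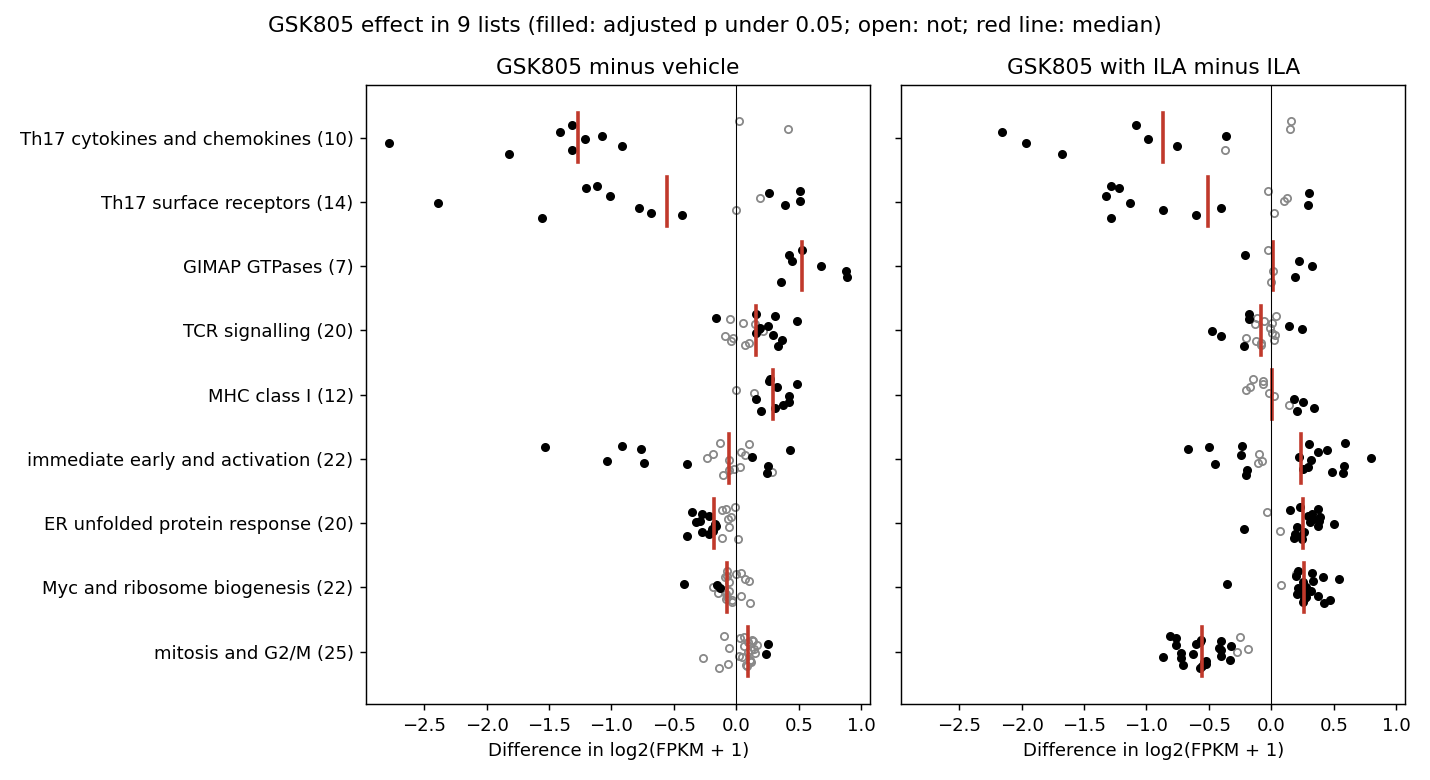
Difference in log2(FPKM + 1) made by GSK805 without ILA (left) and with ILA (right) for the members of 9 gene lists, filled where the adjusted p was under 0.05, with the list median as a red line. The medians of both Th17 lists lie left of 0 in both panels, the GIMAP median moves from 0.53 to 0.01, and the mitosis median from 0.09 to -0.55.

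Gene length moved with the calls. The median exonic length was 5.21 kb for genes called higher, 2.82 kb for genes called lower and 3.30 kb for genes not called. In 5 equal classes of the tested genes by length, the share called higher ran from 5.55% in the class of shortest genes to 28.6% in that of the longest, and the share called lower from 8.56% to 4%. After removal of the trends with length and GC content the share called higher ran from 6.02% to 12.2% and the share called lower from 7.61% to 13.1%. The 8 Th17 cytokine and 8 receptor falls, and all 7 GIMAP and 3 Ms4a rises, had the same counts after this correction. The part of gene length in the count of small differences over all genes, and that of the ribosomal protein share, was not tested.

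**Figure D5:**
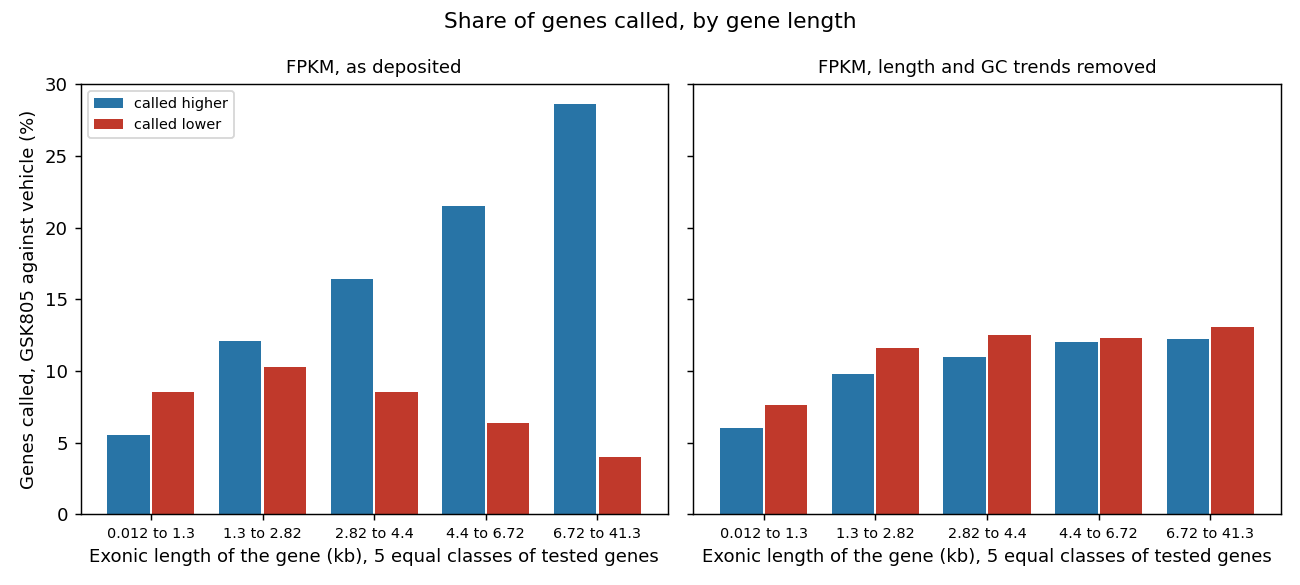
Share of tested genes called higher (blue) or lower (red) with GSK805, in 5 equal classes of exonic length, for FPKM as deposited (left) and after trends with length and GC content were removed (right). As deposited, the share called higher climbs from 5.55% to 28.6%, and after the correction both shares end between 12.2% and 13.1% in the class of the longest genes.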

How the data were processed

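RNA of 12 libraries of cultured Th17 cells was measured by RNA-seq, and the 6 libraries of the vehicle and GSK805 groups form the comparison. The deposited values are FPKM per Ensembl gene, made by the authors. Per the submitters' processing notes FastQC 0.11.2 served for read quality and Bowtie for alignment, on mm10. Which program and annotation gave the counts, and whether strand was used, is unstated in the sources used here. FPKM times GENCODE vM21 exonic length gave whole reads (within 0.1) for at least 98.6% of values in each library, so depth could be read from the files: 17.84 to 23.49 M reads over the 12 libraries, at which a single read in 1 kb of exon adds 0.0426 to 0.056 FPKM.

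Values were transformed to log2(FPKM + 1), since a pseudocount of 1 damps noise at low levels. Genes that reached a mean of 1 FPKM in the vehicle or GSK805 group entered a model with 1 mean per group over all 12 libraries (limma 3.58.1 with trend and robust moderation, R 4.3.3). The contrasts were GSK805 against vehicle, GSK805 with ILA against ILA, and their difference. P-values were adjusted by Benjamini-Hochberg over all 12784 genes and called below 0.05. The ratio of ribosomal protein FPKM to all FPKM was compared by an exact permutation test. Replicates of a group differed by more than sampling noise, so none was merged.

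The members and the 45 gene lists were chosen with earlier results of these data known, so list counts describe and do not test. A few genes are not reported here and were left out of the lists. Named genes were 19 genes of the Th17 and other helper programmes, the 12 called genes with the largest rise and the 12 with the largest fall, given no overlap and at least 5 FPKM in a group (leaving out unnamed, ribosomal, mitochondrial, receptor segment, pseudogene, clone-named and short transcripts under 300 bases), up to 4 called members of each list, members that did not pass as values, and genes called for the difference with ILA. Some further called list members appear as log2 values only and were chosen after their values were seen. Promoter windows came from RefSeq (GRCm38.p6), matching 8329 of 12606 tested symbols, and AGGTCA was searched on both strands. Alternatives were another pseudocount (0.1), other filters, unmoderated variance, quantile normalization, median centring, removal of GC and length trends, voom on recovered reads, a replicate block, only the 2 groups, and leaving out each library. Figures were drawn with matplotlib 3.10.9 in Python 3.11.15.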

Additional observations from a re-analysis of the deposited data

Results flagged for a closer look

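The GSK805 effect was tested for a difference between ILA-treated cells and cells without ILA, and 76 of the genes named by rule passed an adjusted p of 0.05 in limma's test of that difference (background 14.4% of tested genes). The values below are differences of log2 effects, with ILA minus without, over 3 libraries in each of the 4 groups, so a positive value means that GSK805 raised the gene more, or lowered it less, in ILA-treated cells. Naming by rule included genes because they passed this test, so their number is no result. The effect without ILA enters the difference with a minus sign. Genes named for a large rise with GSK805 alone therefore lean to negative values, and those named for a large fall to positive ones. The signs below are thus no separate result for such genes. The split between higher and lower over all genes depended on scaling.

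In the Th17 and other helper programmes the difference was 1.25 for Il23r, 0.81 for Il17a, 0.71 for Il21, 0.35 for Nfkbiz, 1.02 for Ifng, 1.01 for Nkg7, 0.56 for Nrp1, 0.59 for Cd40lg and 0.31 for Cd200. The value for Il23r is affected by its low level with ILA, where FPKM + 1 understates a fall more. The difference was -0.74 for Maf, -0.24 for Hif1a and -0.95 for Nt5e. Among activation, chemokine and NF-κB genes it was 1.42 for Xcl1, 1.18 for Ccl3, 1.03 for Nr4a2, 0.68 for Nr4a3, 0.96 for Fosb, 0.96 for Areg, 0.48 for Gem, 0.49 for Nfkbid, 0.50 for Nfkbib, 0.43 for Nfkb1 and 0.81 for Tnfsf11.

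Among ER, amino acid, lipid and stress genes it was 0.89 for Acly, 0.74 for Cth, 0.67 for Manf, 0.64 for Hyou1, 0.63 for Creld2, 0.31 for Sec61b, 0.55 for Slc7a3, 0.59 for Srxn1, 0.39 for Hsp90aa1, 0.35 for Nop56 and 0.24 for Npm1, against -0.43 for Scd2, -0.48 for Nsdhl, -0.22 for Srebf1 and -0.34 for Sdha. Positive values were also found for Sdcbp2 (0.85), Nfil3 (0.59), Acpp (0.43), Tgif1 (0.39) and Cdkn1a (0.28).

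Negative values were found for genes that rose with GSK805 alone: Gimap4 (-0.87), Gimap3 (-0.70), Gimap9 (-0.55) and Gimap5 (-0.36), the TCR signalling genes Cd2 (-0.56), Plcg1 (-0.55), Ptprc (-0.27) and Cd3e (-0.35), the class I genes Tap1 (-0.55), H2-D1 (-0.23) and H2-K1 (-0.17), and the TGF-β genes Tgfbr2 (-0.53), Tgfbr3 (-0.51) and Smad3 (-0.44). Further values were -1.01 for Hivep3, -0.84 for Lrmp, -0.81 for Lasp1, -0.78 for Hdac7, -0.62 for Bcl2l11, -0.59 for Lef1, -0.45 for Pik3ip1, -0.56 for F2rl1, -0.53 for Cyp1b1, -0.51 for S1pr4, -0.50 for Dusp6, -0.40 for Stat2, -0.34 for Ms4a6c and -0.26 for Itgb2. The cell cycle genes Cenpa (-0.87), Nusap1 (-0.85) and Mcm6 (-0.41) and the markers Klrd1 (-0.42) and Pecam1 (-0.31) also had negative values.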

How the results depend on the processing

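Of the 141 called genes that were named by rule, 109 kept their call and direction under each of the 17 alternatives that tested them (11 of these were not tested with the filter at 5 FPKM), and 32 lost it under at least 1. Npm1 (log2 difference 0.0908) and Hspa8 (0.122) turned to a higher value after quantile normalization, without passing there. The count of genes called higher with GSK805 was 1287 after removal of GC and length trends, 1083 after median centring and 1402 after quantile normalization, and the count called lower was 1703 after median centring; the cause was not tested. The count at 2-fold or more was 33 with a filter at 5 FPKM, where fewer genes are tested, 145 with a pseudocount of 0.1, which damps low genes less, and 187 with voom on recovered reads. The count for the difference between settings was 1067 without a filter. Leaving out each vehicle and GSK805 library in turn gave 2136 to 3027 calls for GSK805 against vehicle, 1424 to 2078 higher, 693 to 949 lower and 62 to 95 at 2-fold or more. For GSK805 with ILA against ILA, without each of its own 6 libraries, the range was 1526 to 2080, with the lowest without GSK805 plus ILA replicate 3. For the difference, without each of the 12 libraries, it was 1216 to 1981, with 1216 without GSK805 replicate 1 and 1217 without GSK805 plus ILA replicate 3.

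With the replicate number as a block 3109 genes were called instead of 3097. The numbers share no stated animal, batch or day, and the deviations of same-numbered vehicle and GSK805 libraries correlated at 0.04, 0.005 and 0.007, so they were not treated as pairs, and not every library correlated best with its own number. The replicate block moved no count over all genes by over 1.5 times, and moved 7 list counts by 1 gene each, none of them above 2. Depth limits the low genes: Il22 rested on 6 to 105 recovered reads per library and Il23r on 34 to 533.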
